A study of Mus musculus with 6 samples.

Results

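Proteases that cut proteins outside the cell, and the inhibitors that hold them in check, were described here in keratinocytes of mice that express a truncated Lef1. The genes were chosen by name: every gene on the array whose symbol is Mmp, Adam, Adamts, Timp or Klk followed by a number, the Spink genes, the extracellular serpin classes (Serpina, Serpinc, Serpine, Serpinf, Serping, Serpinh and Serpini), and Plau, Plaur, Plat, Slpi, St14, Spint1 and Spint2. This gave 95 of 11280 genes, read by 744 of 109751 probe sets. They comprise 21 matrix metalloproteinases, 21 ADAM proteins, 6 ADAMTS proteins, 4 tissue inhibitors of metalloproteinases, 15 kallikreins, 4 Kazal inhibitors, 17 extracellular serpins, 3 genes of plasminogen activation, the membrane protease St14 with its 2 Kunitz inhibitors, and Slpi. The current mouse gene table lists 160 protein-coding genes under the same names, so 65 were not analysed here, Klk5, Spink5 and Adam17 among them.

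The samples are unsorted keratinocytes of back skin, 3 samples from K14ΔNLef1 transgenic mice and 3 from wild type mice, all female, 9.5 weeks old and of C57BL6/CBA background. K14ΔNLef1 is Lef1, a transcription factor of the Wnt pathway, without its N-terminal part, expressed from the keratin 14 promoter, which is active in the basal layer. The question is what the transgene does to expression in the epidermis. The labels name the 3 samples of a genotype biological replicates, and each was hybridised to 1 exon array.

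In skin, extracellular proteolysis serves several tasks. Kallikreins and the matriptase St14 act in the upper epidermis, where they cut the junctions that hold corneocytes together and process filaggrin, under the control of Kazal and Kunitz inhibitors. Plasminogen activators make plasmin at the surface of keratinocytes, mainly during wound closure, and serpins trap them irreversibly. Matrix metalloproteinases and ADAMTS proteins cut collagens and proteoglycans, ADAM proteins shed growth factors and receptors from cell surfaces, and Timp proteins inhibit the metalloproteases.

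Of the 95 genes, 1 passed the test, Serpine2, and it rose. Its promoter is printed here because it is the gene the comparison turns on. The stretch holds the 250 bases before the start of the gene (RefSeq, GRCm38.p6, chr1:79858666-79858915, minus strand, written 5′ to 3′ along the gene), and capitals mark the GC box letters GGGCGGG.
Serpine2: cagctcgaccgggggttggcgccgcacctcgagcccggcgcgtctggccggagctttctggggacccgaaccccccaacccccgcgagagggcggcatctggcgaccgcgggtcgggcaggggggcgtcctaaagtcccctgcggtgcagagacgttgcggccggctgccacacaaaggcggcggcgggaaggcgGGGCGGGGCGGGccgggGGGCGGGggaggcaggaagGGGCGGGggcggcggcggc
There are 4 matches, which begin 55, 50, 38 and 19 bases before the start, and the first pair overlaps. GC box letters, searched on both strands over 300 bases (250 before the start and 50 after it), were present in 29.2% of the 65 members with a promoter in the RefSeq table, against 27.9% of 27025 genes. The TCF/LEF letters CTTTGAA and CTTTGAT, on both strands, were not in this window of Serpine2. They were in 5 members (7.69%), Adam25, Mmp21, Mmp7, Serpina12 and Serpina3c, against 9.88% of the 27025 genes.

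A second set of sequences is shown because neighbouring metalloproteinase genes share them. Of the 9 Mmp genes on chromosome 9 measured here, 7 hold the AP-1 letters TGAGTCA (on either strand, so also TGACTCA) before the start, and 5 are printed over the 100 bases before the start, with the AP-1 letters and TATAAA in capitals (RefSeq, GRCm38.p6). Mmp3 is at chr9:7445722-7445821, Mmp10 at chr9:7502242-7502341, Mmp1a at chr9:7464041-7464140 and Mmp13 at chr9:7272414-7272513, all on the plus strand, and Mmp1b is at chr9:7388027-7388126 on the minus strand. Mmp1a and Mmp1b are close copies of each other.
Mmp3: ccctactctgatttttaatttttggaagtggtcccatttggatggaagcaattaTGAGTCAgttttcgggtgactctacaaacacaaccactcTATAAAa
Mmp10: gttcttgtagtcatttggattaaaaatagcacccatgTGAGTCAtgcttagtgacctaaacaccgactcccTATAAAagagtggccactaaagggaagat
Mmp1a: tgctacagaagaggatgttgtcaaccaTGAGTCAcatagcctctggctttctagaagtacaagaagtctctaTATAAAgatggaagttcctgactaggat
Mmp1b: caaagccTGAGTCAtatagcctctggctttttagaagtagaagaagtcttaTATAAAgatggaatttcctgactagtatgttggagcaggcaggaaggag
Mmp13: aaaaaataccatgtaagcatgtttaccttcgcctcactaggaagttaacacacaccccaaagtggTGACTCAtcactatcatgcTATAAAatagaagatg
AP-1 letters were present in 11 of the 65 members with a promoter (16.9%), against 5.95% of the 27025 genes with a promoter. Of the 11, 7 are the Mmp genes of chromosome 9 counted above, so the share rests mostly on this cluster. None of these 11 members passed the test, and their differences between genotypes ran from -0.47 to 0.60 with a median of 0.18. TATAAA on the strand of the gene was present in 18.5% of the members and in 9.77% of the 27025 genes. Most of these members were again Mmp genes of chromosome 9.

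Levels are given as gene values, the mean log2 intensity of a gene's probe sets on an array, and differences are K14ΔNLef1 minus wild type on that log2 scale. Since probe sets bind with different strength, the level of 1 gene is not compared with that of another. Lef1 checks the labels: its gene value was 11.11, 11.13 and 11.24 on the K14ΔNLef1 arrays, against 5.81, 7.02 and 6.26 on the wild type arrays. Keratin 14 and keratin 5 (Krt14 and Krt5), which define basal keratinocytes, had mean gene values of 12.97 and 12.24 in K14ΔNLef1 and 12.94 and 12.41 in wild type. Of 10 basal markers 8 had a negative difference and none passed (median of -0.27), with 4 lower without overlap and Cdh3 higher without overlap (0.82). The median difference of the 2820 brightest genes by mean level was also -0.27. Of 9 suprabasal markers 4 had a positive and 5 a negative difference, and 1 passed, Krt77, which fell by 1.97. Without overlap, 1 of them was higher, Tgm3 (1.14), and 2 were lower, Krt77 and Krt10 (-0.60). Non-overlap in the higher direction held for 6.91% of all genes, and in the lower direction for 11.8%. Median intensity was 154.2 on K14ΔNLef1 replicate 1 and 190.0 to 203.2 on the other arrays. Among the 2820 dimmest genes the median gene lay 0.20 above the wild type mean on that array, and among the 2820 brightest the median was -0.70. Of the 95 proteases and inhibitors, 52 belong to the dimmest class. The number of arrays limits the precision.

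In the limma fit 131 of 11280 genes had an adjusted p of at most 0.05 (1.16%), of which 37 rose (0.328%) and 94 fell (0.833%). After scaling all arrays to equal medians, 101 rose and 133 fell, and the median difference of all genes moved by 0.11. Among the proteases and inhibitors 1 rose and 0 fell, and at an unadjusted p under 0.05 in the same limma fit 8 were higher and 5 lower, where 475 and 855 of all genes were (11.8% in all). Arrays of the genotypes did not overlap for 21 of the 95, of which 14 were higher and 7 lower in K14ΔNLef1. Non-overlap held for 18.7% of all genes, 6.91% higher and 11.8% lower. The median difference was 0.06 for the 95 genes and -0.05 for all genes, and 77 of the 95 differed by less than 0.5.

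**Figure D1:**
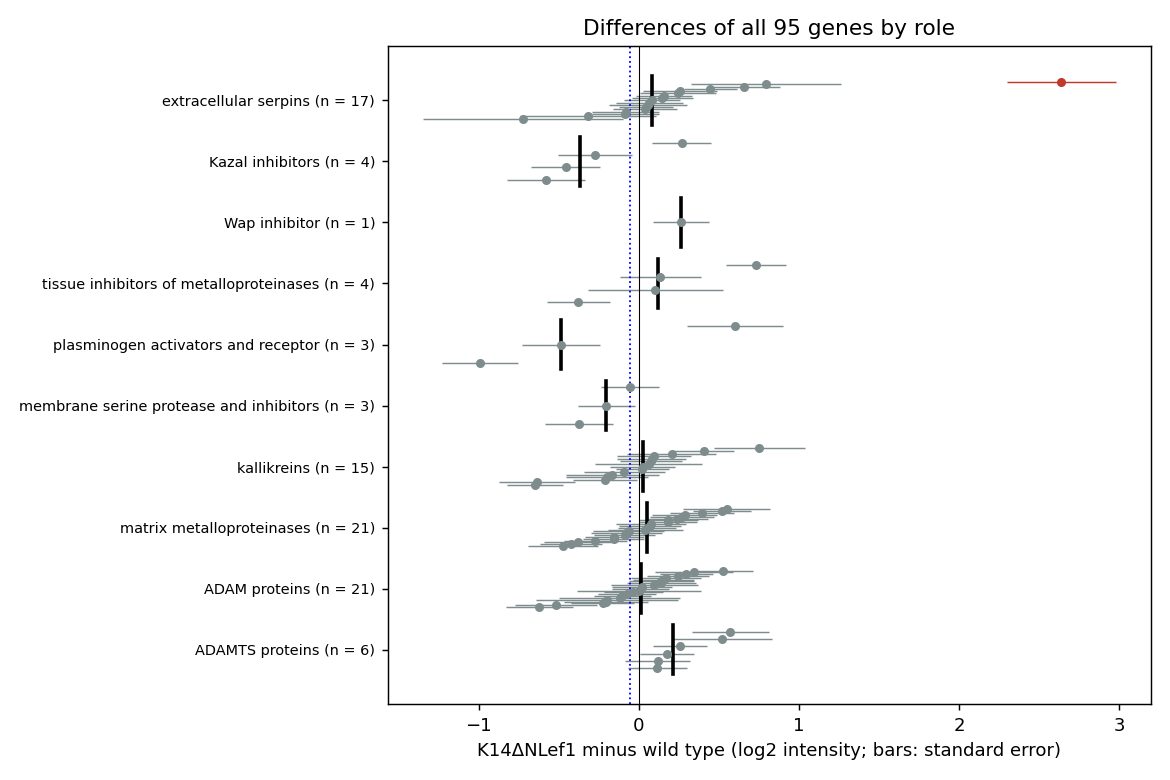
Each point is the K14ΔNLef1 minus wild type difference of 1 of the 95 genes in log2 intensity, with its standard error as a bar, grouped by role from top to bottom. Thick black bars are the role medians, the blue dotted line is the median of all genes (-0.05), and the red point, Serpine2 at 2.64, is the gene that passed.

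The differences of the 95 genes were not alike on the 3 K14ΔNLef1 arrays. Set against the wild type mean, the median of the 95 genes was 0.21 on replicate 1, -0.05 on replicate 2 and 0.03 on replicate 3. Of the 95 differences 58 were positive with all arrays and 48 without replicate 1, where the median was 0.0009. In the dimmest class the 52 proteases and inhibitors had a median of 0.24 on replicate 1, beside 0.20 for all 2820 genes of that class. In the brightest class the 8 proteases and inhibitors had a median of -0.36 and all genes -0.70.

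**Figure D2:**
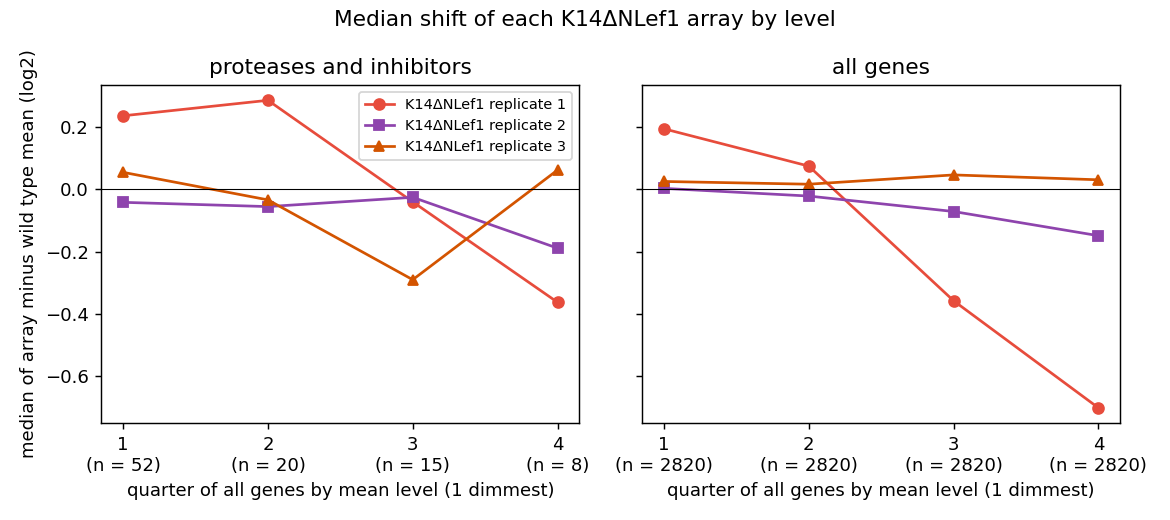
The vertical axis is the median over genes of each K14ΔNLef1 array minus the wild type mean (log2), and the horizontal axis is the class of 2820 genes by mean level, 1 being the dimmest and 4 the brightest, for the 95 proteases and inhibitors (left) and for all genes (right). On replicate 1 the dimmest genes lie above 0 and the brightest below, in both panels, while the other arrays stay nearer to 0 among all genes.

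Among the serpins, Serpine2 stood out. It encodes protease nexin 1, a secreted inhibitor of thrombin, plasmin and plasminogen activators, known also from the dermal papilla of the hair follicle. Its gene value was 7.09, 7.58 and 8.43 on K14ΔNLef1 replicates 1, 2 and 3, against 5.39, 5.06 and 4.74 on wild type replicates 1, 2 and 3. The lowest K14ΔNLef1 array lay 1.70 above the highest wild type array. The mean was 7.70 ± 0.68 in K14ΔNLef1 and 5.07 ± 0.32 in wild type (SD, n = 3), a rise of 2.64 (SE 0.34), or 6.22-fold, with a limma adjusted p of 0.0142. With 1 array left out the rise was 2.27 to 2.94. It passed in 4 of 6 such limma fits, but not when wild type replicate 2 (adjusted p of 0.0764) or wild type replicate 3 (0.0848) was the array left out.

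The rise of Serpine2 ran through all of its 10 probe sets, by 1.49 to 4.21, with a median of 2.55. In 9 of the 10 the genotypes did not overlap, where 5.11% of all probe sets did so in this direction. Probe set 4715086 read 12.42, 12.09 and 12.35 in K14ΔNLef1, against 9.13, 8.16 and 8.74 in wild type. It was the only probe set among the 744 that passed the test per probe set (limma adjusted p of 0.0161), as 0.19% of all probe sets did. With 1 array left out it passed only in the fit without K14ΔNLef1 replicate 1. Probe set 4580077 had the largest difference, 4.21, with wild type values of 7.13, 7.45 and 4.91. The probe set with overlap, 4960351, read 4.17, 5.52 and 7.34 in K14ΔNLef1, against 4.40, 3.71 and 3.43 in wild type.

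**Figure D3:**
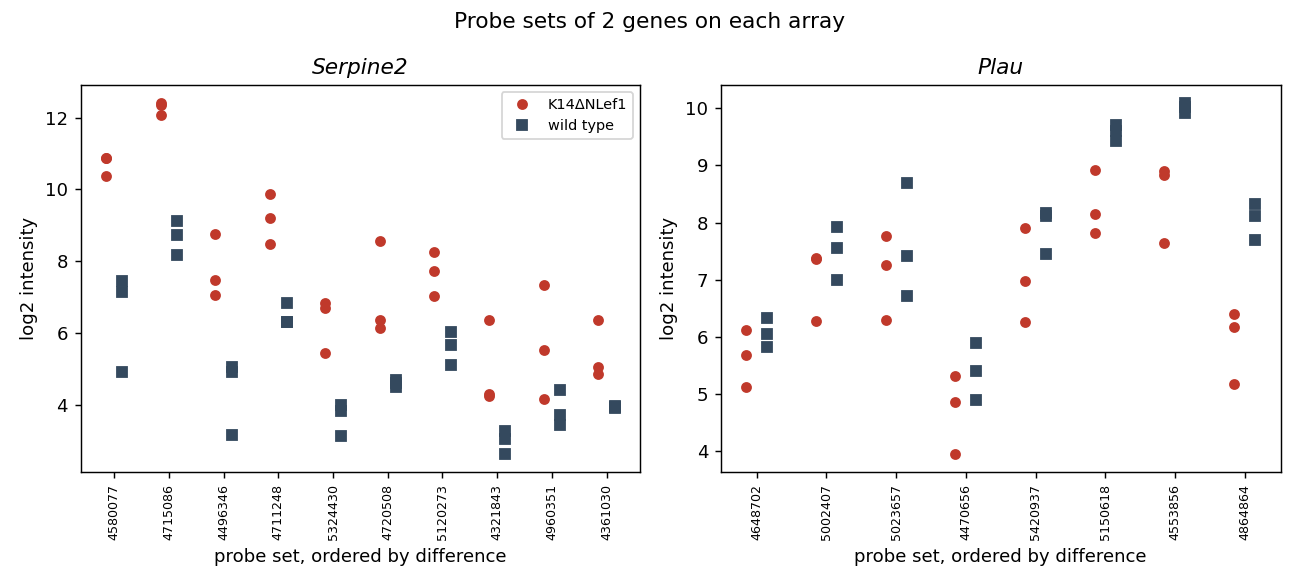
Log2 intensity of each probe set on each array for Serpine2 (left, 10 probe sets) and Plau (right, 8 probe sets), with K14ΔNLef1 arrays as red circles and wild type arrays as blue squares, ordered by difference. For Serpine2 the K14ΔNLef1 arrays lie above all wild type arrays in 9 probe sets, and for Plau they lie below in 3.

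The immediate neighbours of Serpine2 on chromosome 1 were not analysed here. The nearest measured gene on each side, 2 genes away, had a difference of 0.16 for Wdfy1 and -0.41 for Cul3, with limma adjusted p of 0.777 and 0.669. The 5 genes whose values over the 6 arrays were most like those of Serpine2 were Cpq, Cdh11, Tmem176b, Ccdc3 and Aldh1a2, with Pearson r of 0.997, 0.996, 0.995, 0.995 and 0.992. These values share the split between genotypes, so a high r is likely for any gene that differs in the same direction. Cpq, a secreted carboxypeptidase, had gene values of 5.65, 5.70 and 6.22 in K14ΔNLef1, against 4.66, 4.49 and 4.38 in wild type. Among the other proteases and inhibitors, the closest were Serpina9 (r of 0.933), Klk10 (0.923) and Adam23 (0.922).

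Fibroblasts and dermal papilla cells also express Serpine2, and their markers were followed beside it. Of 18 such markers measured, 16 had a positive difference and none passed. The mean over the list was 0.15, 0.23 and 0.36 above the wild type mean on K14ΔNLef1 replicates 1, 2 and 3. On wild type replicates 1, 2 and 3 it was -0.09, -0.02 and 0.11. Medians over the 18 markers were 0.31, 0.13 and 0.16 on the K14ΔNLef1 replicates, in another order than the means. Thy1, also counted as a T cell marker here, lay at -0.39, 1.54 and 0.86 from the wild type mean on these replicates. The fibroblast collagen genes Col1a1 and Col1a2 differed by 0.14 and 0.16, the matrix gene Sparc by 0.92, and the dermal papilla marker Corin by 0.15. The 2 markers with a negative difference were the fibroblast gene Lum, read by 1 probe set, at -1.29, and the dermal papilla marker Alx4, at -0.13. Without overlap, 4 of the 18 were higher, Fbln1 (1.02), Sparc, Dcn (0.51) and Pdgfrb (0.13), and 1 was lower, Lum. Of all genes 6.91% were higher and 11.8% lower without overlap. The part of these cells in the rise of Serpine2 was not tested. In whole samples, fewer or more cells of a type and less or more RNA per cell cannot be told apart.

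Of the other 16 extracellular serpins none passed. Without overlap were 3 of the 17, Serpine2 included (17.6%), near the 18.7% of all genes. Serpinf1, the secreted anti-angiogenic factor PEDF, which lacks inhibitory activity, had gene values of 6.59, 6.77 and 7.36 in K14ΔNLef1, against 6.20, 6.21 and 6.33 in wild type. All K14ΔNLef1 arrays lay above all wild type arrays, with a difference of 0.66 (SE 0.23) and a limma adjusted p of 0.302. Serpinf2, its neighbour on chromosome 11 and the inhibitor of plasmin, differed by 0.24 with overlap. Serpina9 had values of 5.98, 5.89 and 6.04 in K14ΔNLef1, against 5.63, 5.40 and 5.54 in wild type, without overlap (adjusted p of 0.341).

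The arrays of the genotypes overlapped for the serpins of blood plasma and their relatives described next. Serpinc1, antithrombin, differed by -0.09, Serping1, the inhibitor of complement C1, by 0.07, the corticosteroid-binding Serpina6 by 0.15, and the neuronal Serpini1 by 0.16. Serpina3n, an acute phase serpin, had values of 6.67, 5.04 and 6.96 in K14ΔNLef1, against 5.09, 5.46 and 5.73 in wild type, so that replicate 2 lay below all wild type arrays and the others above. Serpina3g had 5.73, 8.65 and 7.72 in K14ΔNLef1, against 8.14, 7.93 and 8.20 in wild type, with replicate 1 far below all other arrays. Its difference was -0.72 with all arrays and 0.09 without replicate 1. Serpina1 and Serpina3 genes belong to clusters of near-identical copies, so their values are uncertain.

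In the plasminogen system, both activators were lower on average and the receptor was higher, and none of the 3 passed. Plau, the urokinase-type activator, had gene values of 6.45, 6.70 and 7.15 in K14ΔNLef1, against 7.53, 8.05 and 7.71 in wild type. The highest K14ΔNLef1 array lay below the lowest wild type array. The difference was -0.99 (SE 0.24), the lowest among the 95 genes, with a limma adjusted p of 0.125. Leaving out each array in turn gave -1.18 to -0.84, at adjusted p from 0.0884 to 0.406. All 8 Plau probe sets were lower, by -2.13 to -0.42, and 3 of them were without overlap, where 9.46% of all probe sets were. Probe set 4864864 read 5.16, 6.17 and 6.40 in K14ΔNLef1, against 7.70, 8.12 and 8.32 in wild type.

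Plat, the tissue-type activator, had gene values of 6.56, 6.53 and 6.30 in K14ΔNLef1, against 7.21, 7.20 and 6.44 in wild type. Wild type replicate 3 lay among the K14ΔNLef1 arrays, and the difference of -0.49 (SE 0.24) had a limma adjusted p of 0.506. Plaur, the receptor that holds urokinase at the cell surface, had 6.28, 5.42 and 6.65 in K14ΔNLef1, against 5.62, 5.53 and 5.41 in wild type. Here K14ΔNLef1 replicate 2 lay within the wild type range and the other arrays above it (difference of 0.60, adjusted p of 0.507).

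Among the tissue inhibitors of metalloproteinases, Timp1 was higher and Timp3 lower on all K14ΔNLef1 arrays, and neither passed. Timp1, a secreted inhibitor often induced in growing or injured tissue, had gene values of 5.57, 5.21 and 5.56 in K14ΔNLef1, against 4.72, 4.86 and 4.56 in wild type. The difference was 0.73 (SE 0.19, limma adjusted p of 0.149), positive in all 3 of its probe sets. Timp3, which binds to the extracellular matrix and also inhibits ADAM proteins, had 8.80, 9.21 and 9.06 in K14ΔNLef1, against 9.33, 9.23 and 9.63 in wild type. The gene values did not overlap, by a gap of 0.02 between the nearest arrays. The difference was -0.38 (limma adjusted p of 0.523). All 10 probe sets were lower, 0 of them without overlap. Timp3 is among the 2820 brightest genes, whose median difference was -0.27.

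The remaining Timp genes were read with more spread. Timp2, which helps Mmp14 activate Mmp2, had 6.66, 8.26 and 8.12 in K14ΔNLef1, against 7.48, 7.23 and 8.01 in wild type. Replicate 1 lay below all wild type arrays and the other K14ΔNLef1 arrays above them. Timp4 had 7.89 on K14ΔNLef1 replicate 1 and 7.10 and 7.01 on the others, against 7.10 to 7.29 in wild type.

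**Figure D4:**
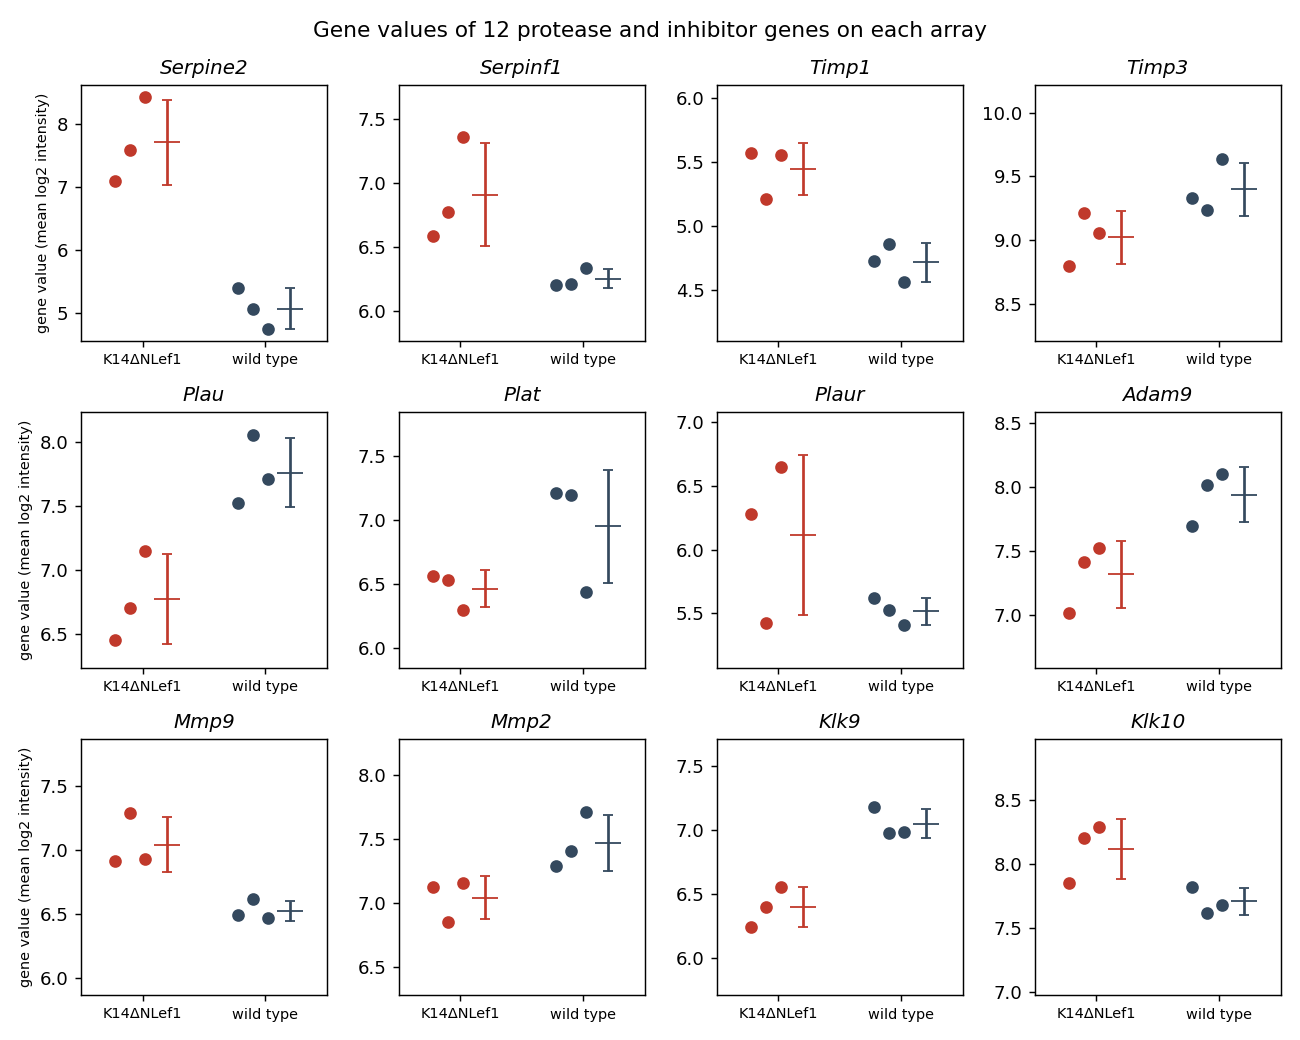
Gene values (mean log2 intensity of the probe sets) of 12 genes on each array, with K14ΔNLef1 on the left and wild type on the right of each panel. Points are arrays, and the bars beside them are mean and SD (n = 3). Serpine2 shows the widest gap between genotypes, and Plat, Plaur, Klk10 and Timp3 show arrays of the genotypes at or near the same value.

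The matrix metalloproteinases were divided in direction, with 12 of 21 positive and 9 negative, a median of 0.05 and none past the threshold. The gelatinases Mmp9 and Mmp2, which cut type IV collagen of the basement membrane, went apart. Mmp9 had gene values of 6.91, 7.29 and 6.93 in K14ΔNLef1, against 6.49, 6.61 and 6.47 in wild type, without overlap (difference of 0.52, SE 0.18, limma adjusted p of 0.305). Mmp2 had 7.12, 6.85 and 7.15 in K14ΔNLef1, against 7.29, 7.40 and 7.71 in wild type, also without overlap (difference of -0.43, SE 0.19, adjusted p of 0.447). The difference of Mmp9 was not even between its probe sets, whose positions were not used here. Of its 10 probe sets 4 were higher without overlap, 1 of them by 2.12, and 3 had a negative difference. Among all probe sets 5.11% were higher without overlap. In Mmp2 13 of 16 probe sets were lower.

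Mmp9 is also made by Langerhans cells, macrophages and neutrophils, and markers of Langerhans cells differed between the arrays. Of 10 Langerhans cell markers 9 had a positive difference and none passed, with means of 0.18, 1.17 and 0.66 above the wild type mean on K14ΔNLef1 replicates 1, 2 and 3, and 0.34, -0.31 and -0.03 on the wild type arrays. Macrophage, monocyte and neutrophil markers, of which 10 of 12 had a positive difference, averaged 0.25, 0.30 and 0.31 on the K14ΔNLef1 arrays and -0.02 to 0.03 on the wild type arrays. The marker S100a9 weighed on these means, at 1.06, -0.19 and 3.21 from the wild type mean on K14ΔNLef1 replicates 1, 2 and 3. Medians over the 12 markers were 0.23, 0.15 and 0.07 on the same arrays. The part of these cells in the values of Mmp9 was not tested.

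In the cluster on chromosome 9, the stromelysin Mmp3 was the gene without overlap. It had gene values of 5.05, 5.10 and 5.10 in K14ΔNLef1, against 5.47, 5.96 and 5.24 in wild type, with a difference of -0.47 (SE 0.22, limma adjusted p of 0.458). The genes around it overlapped between the genotypes. Mmp1b and Mmp1a, on either side, differed by 0.24 and 0.29, the macrophage elastase Mmp12 by 0.18 and the stromelysin Mmp10 by 0.07. The collagenase Mmp13 differed by -0.15 and the matrilysin Mmp7 by -0.06 (0.04 after scaling all arrays to equal medians).

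Of the metalloproteinases bound to the membrane, Mmp14, which activates Mmp2, had 8.14, 8.32 and 8.66 in K14ΔNLef1, against 8.61, 8.48 and 8.50 in wild type, with overlap. Mmp15 and Mmp16 differed by -0.27 and 0.18, and Mmp24 by 0.39 without overlap. Without K14ΔNLef1 replicate 1 the difference was 0.07 for Mmp16 and 0.22 for Mmp24. Mmp28, epilysin, which keratinocytes make, had 7.37, 6.87 and 6.86 in K14ΔNLef1, against 7.28, 7.32 and 7.65 in wild type. Its K14ΔNLef1 replicates 2 and 3 lay below the wild type arrays and replicate 1 among them. Mmp21 had 6.22, 6.37 and 7.21 in K14ΔNLef1, against 5.98, 5.97 and 6.20 in wild type, a difference of 0.55 (adjusted p of 0.503) that was largest on replicate 3.

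The ADAM proteins held the smallest median difference of the larger groups, 0.01, with 12 of 21 positive and none past the threshold. Adam9, a sheddase of keratinocytes and other cells, had gene values of 7.02, 7.41 and 7.52 in K14ΔNLef1, against 7.69, 8.02 and 8.10 in wild type. The arrays did not overlap, the difference was -0.62 (SE 0.21, limma adjusted p of 0.285), and 20 of its 23 probe sets were lower. Adam10, which sheds Notch receptors and E-cadherin, had 8.06, 8.24 and 8.98 in K14ΔNLef1, against 9.05, 8.97 and 8.81 in wild type. Its K14ΔNLef1 replicates 1 and 2 lay below the wild type range and replicate 3 within it (difference of -0.52, adjusted p of 0.503).

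In the other direction, Adam23, which has no protease activity and acts in cell contact, had 5.82, 6.15 and 6.10 in K14ΔNLef1, against 5.65, 5.33 and 5.52 in wild type. The difference was 0.53 (SE 0.18, limma adjusted p of 0.306), without overlap, and 13 of 17 probe sets were higher. Adam28, known from lymphocytes, had 6.30, 6.12 and 6.09 in K14ΔNLef1, against 5.92, 5.90 and 5.80 in wild type, a difference of 0.30 without overlap. All 9 T cell markers measured had a positive difference and none passed, with means of -0.13, 1.59 and 1.06 relative to the wild type mean on K14ΔNLef1 replicates 1, 2 and 3, and 0.48, -0.34 and -0.14 on the wild type arrays. Their part in the values of Adam28 was not tested. Adam12, Adam15 and Adam8 had differences of -0.03, 0.02 and 0.00. For Adam8 the wild type arrays spread from 6.49 to 7.98. The sperm proteins Adam2 and Adam3 and the epididymal Adam7 differed by 0.14, 0.01 and -0.23. Adam24, Adam25 and Adam26b, read by 2, 1 and 1 probe sets, belong to a family of close copies and are uncertain.

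All 6 ADAMTS proteins had positive differences, from 0.12 to 0.57, and none passed. Adamts1, which cuts versican, had gene values of 8.40, 8.44 and 9.08 in K14ΔNLef1, against 7.98, 7.89 and 8.35 in wild type. The arrays did not overlap, with 0.06 between the nearest, and all 15 probe sets were higher, by 0.14 to 1.07 (difference for the gene of 0.57, SE 0.24, limma adjusted p of 0.408). Adamts5, an aggrecanase, had 5.06, 5.14 and 5.27 in K14ΔNLef1, against 4.89, 5.02 and 4.80 in wild type, a difference of 0.26 without overlap. Adamts20, read by 1 probe set, had 4.66, 4.42 and 3.43 in K14ΔNLef1, against 3.49, 3.75 and 3.70 in wild type, with replicate 3 below the wild type arrays. Adamts13, the protease of von Willebrand factor, and Adamts7 and Adamts8 differed by 0.17, 0.12 and 0.12. Without K14ΔNLef1 replicate 1 the differences of Adamts7 and Adamts8 were -0.03 and -0.02.

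The kallikreins lie side by side on chromosome 7, and neighbours there differed in direction. Klk10, Klk9, Klk8 and Klk7, in this order along the chromosome, had differences of 0.41, -0.65, 0.02 and 0.20. Klk9 had gene values of 6.24, 6.40 and 6.55 in K14ΔNLef1, against 7.18, 6.98 and 6.98 in wild type, without overlap (SE 0.17, limma adjusted p of 0.173). Klk10 had 7.85, 8.21 and 8.29 in K14ΔNLef1, against 7.82, 7.62 and 7.68 in wild type, without overlap (adjusted p of 0.462). The lower value of Klk9 came from 3 of its 5 probe sets, each without overlap, at -1.81, -1.45 and -0.35. The other probe sets differed by 0.22 and 0.15. Among all probe sets 9.46% were lower without overlap. Probe set 5451586 read 7.17, 6.96 and 6.56 in K14ΔNLef1, against 8.40, 8.97 and 8.75 in wild type (adjusted p of 0.0978).

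Of the kallikreins known from shedding of the cornified layer, Klk5 and Klk14 were not analysed here. Klk7, Klk8 and Klk6 were, and their arrays overlapped between the genotypes. Klk7, which cuts corneodesmosin, had 7.65, 7.77 and 7.53 in K14ΔNLef1, against 7.02, 7.26 and 8.06 in wild type. The K14ΔNLef1 arrays lay within the wild type range. Klk8 had 7.22, 7.25 and 7.37 in K14ΔNLef1, against 7.27, 7.15 and 7.35 in wild type, and Klk6 differed by 0.03. The 9 Klk1b genes, close copies read by 1 to 3 probe sets, differed by -0.63 for Klk1b16 to 0.75 for Klk1b27 and are uncertain.

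The membrane protease St14, matriptase, and its inhibitors Spint1 and Spint2 all had small negative differences with overlap. These genes are among the 2820 brightest, whose median difference was -0.27. St14 had gene values of 8.23, 8.41 and 8.63 in K14ΔNLef1, against 8.37, 8.52 and 8.55 in wild type (difference of -0.05, SE 0.18). Its difference was 0.05 after scaling all arrays to equal medians and 0.04 without K14ΔNLef1 replicate 1. Spint1 had 7.84, 8.03 and 8.31 in K14ΔNLef1, against 8.56, 8.12 and 8.62 in wild type (difference of -0.37, limma adjusted p of 0.572). Spint2 had 8.55, 8.70 and 8.81 in K14ΔNLef1, against 8.96, 8.70 and 9.02 in wild type (-0.20, adjusted p of 0.718).

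Of the small secreted inhibitors, Slpi, an inhibitor of neutrophil elastase made by epithelia, had 6.93, 6.61 and 6.61 in K14ΔNLef1, against 6.37, 6.56 and 6.44 in wild type. The arrays did not overlap, and the difference of 0.26 (SE 0.18) had a limma adjusted p of 0.632. It was 0.16 without K14ΔNLef1 replicate 1 and -0.0036 with the median of its probe sets. Spink12 had 5.09, 4.18 and 4.60 in K14ΔNLef1, against 5.29, 5.08 and 5.25 in wild type, so that replicate 1 lay at the wild type level and the others below it (adjusted p of 0.408). Spink7, read by 1 probe set, and Spink1 differed by -0.46 and -0.28 with overlap. Spink4 differed by 0.27 without overlap, with 0.0063 between the nearest arrays, and by 0.14 without K14ΔNLef1 replicate 1.

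Partners, substrates and other proteases of skin were listed from general knowledge, but with earlier results of these data known. The lists are therefore no independent test of these genes. Of the listed genes, 110 were measured that are not among the 95. In the limma fit over all genes 1 of them rose and 1 fell, where 0.328% of all genes rose and 0.833% fell. The gene that rose was Vldlr, a receptor that takes up complexes of serpins with proteases, Serpine2 and urokinase among them. It had gene values of 7.91, 8.48 and 8.57 in K14ΔNLef1, against 5.70, 6.17 and 5.83 in wild type, a rise of 2.42 (SE 0.23, adjusted p of 0.00361). Lrp1, the related receptor with the same ligands, had 7.45, 7.56 and 7.67 in K14ΔNLef1, against 8.22, 8.06 and 8.10 in wild type. All its K14ΔNLef1 arrays lay below the wild type arrays, and it did not pass (difference of -0.56, adjusted p of 0.214).

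The gene that fell was Prss23, a secreted serine protease. Its gene value was 7.53, 7.65 and 7.70 in K14ΔNLef1, against 9.46, 10.12 and 10.29 in wild type, and it fell by 2.33 (SE 0.24, limma adjusted p of 0.00525). Vldlr and Prss23 passed in all 6 fits with 1 array left out. The other 12 membrane and secreted serine proteases of that list did not pass, and the smallest p among them was that of Htra1, with a difference of -0.71 (adjusted p of 0.235).

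In the remaining lists no gene passed. Of 17 cathepsins and cystatins the smallest p were those of the lysosomal proteases Ctso, with a difference of -0.86 (adjusted p of 0.0967), and Ctsl, with -0.75 (0.176). Of 16 metalloproteases and regulators the aminopeptidase gene Anpep had -0.97 (0.0967) and Tspan5, a tetraspanin that guides Adam10, had -0.97 (0.113). Of 4 protease-activated receptors F2rl1, which St14 and kallikreins can activate, had -0.62 (0.201) and F2rl2 had 0.26 (0.716). Of 23 epidermal substrates Fn1, fibronectin, had 1.44 (0.165) and the basement membrane proteoglycan gene Hspg2 had 0.49 (0.274). Of 8 proprotein convertases and dipeptidyl peptidases Pcsk5 had 0.52 (0.316) and Pcsk4 had -0.12 (0.861). Of 10 other inhibitors and epidermal proteases Wfdc2 had 0.30 (0.577) and Casp14 had -0.40 (0.616).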

How the data were processed

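The deposited table holds 1 linear intensity per probe set and array, made by the authors with RMA and Affymetrix Power Tools on the mm9 build, per the submitters' processing notes. Neither versions nor filters are stated in those notes. On a log2 scale 100% of the deposited intensities return to 5-decimal numbers (tolerance 2e-08), and all tests were made on that scale. Of 114330 probe sets, 109751 have 1 gene symbol in the platform annotation, 834 have several and 3745 have none listed, and only the first were used. Older symbols were updated through the GRCm38.p6 gene table for 1228 symbols, which named 2 of the 95 genes here, Adam6b and Spink1. Probe sets per gene ranged from 1 to 26 in the 95 genes, with a median of 6 and 10 genes with 1.

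Probe sets of a gene were averaged as log2 values. All genes were fitted, with no filter on low values and two-sided, by lmFit and eBayes of limma 3.58.1 under R 4.3.3, with Benjamini-Hochberg adjustment over all 11280 genes and a threshold of 0.05, and the same fit was run over all probe sets. No detection call is given, so values near background cannot be told from low expression. Replicates are named biological but no animals are named, so p-values measure the spread between these samples. The rule for genes to name took those that passed, those without overlap that differed by at least 1, the 4 of each role with the smallest p, those with a textbook role in skin, and of each partner list those that passed or else the 2 with the smallest p; not all of these need be described. Other genes given by value, such as Serpina3g, Mmp28, Lrp1, Htra1 and the neighbours in a cluster, were chosen after their values were seen. The genes and lists were chosen with earlier results of these data known. Alternatives were the median of probe sets, filters on dim genes and on genes with under 4 probe sets, other scaling, quantile normalization, trend and robust settings, array weights, blocks, the array number as a covariate and each array left out. Promoters came from RefSeq (GRCm38.p6) for 65 genes. Python 3.11.15, pandas 2.3.3 and matplotlib 3.10.9 were used.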

Additional observations from a re-analysis of the deposited data

How the results depend on the processing

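Serpine2 passed in 13 of 15 alternatives that kept it. It is among the 2820 dimmest genes by its mean level, so it was not tested with dim genes left out, where 0 of the proteases and inhibitors rose. With array weights, which gave K14ΔNLef1 replicate 2 a weight of 5.18 and replicate 1 a weight of 0.15, 7 rose and 7 fell (14.7% of the 95, as 11.5% of all genes did), and 20 genes of the partner lists passed. With 1 array left out, 0 to 1 rose and 0 to 3 probe sets passed, the 3 being Serpine2 probe sets without K14ΔNLef1 replicate 1. Of the 744 probe sets 4 passed with the same medians, 4 with quantile normalization, 7 with array weights and 0 with the array number as a covariate. The labels name no pairs of samples. Deviations of same-numbered arrays from their genotype mean correlated at -0.163, -0.172 and 0.036. For arrays with adjacent sample numbers the correlations were 0.199, -0.075 and -0.007, in the order of wild type replicates 1, 2 and 3. The 3 deviations of a genotype sum to 0 for each gene, so these correlations cannot decide whether samples are paired. With the replicate block, 1 gene rose (Serpine2, limma adjusted p of 0.0405), 0 probe sets passed, and of all genes 26 rose and 49 fell, and with adjacent sample numbers as a block 0 probe sets passed. Of all genes, 101 rose and 133 fell with the same medians, 89 and 112 with quantile normalization, 598 and 698 with array weights, and 8 to 115 and 18 to 124 with 1 array left out. Over the 46 genes that the naming rule took, Serpine2 included, the difference changed sign in 35 of 707 fits, none of them of Serpine2, and other genes given by value were not counted. Adam12 was 0.0747 with the same medians and 0.048 with quantile normalization, and St14 was 0.0546 and 0.0969. With array weights Adam15 was -0.0258, Adam8 -0.0268, Klk6 -0.18, Klk8 -0.0008, Mmp10 -0.11, Serpina3n -0.15, Serping1 -0.19 and Timp4 -0.0838. With the median of probe sets Mmp10 was -0.11, Mmp14 0.18, Serping1 -0.13, Slpi -0.0036 and Timp4 -0.10. With 1 array left out the ranges were -0.15 to 0.068 for Adam12, -0.10 to 0.10 for Adam15, -0.45 to 0.30 for Adam8, -0.13 to 0.15 for Klk6, -0.0108 to 0.51 for Klk7, -0.0311 to 0.0695 for Klk8, -0.12 to 0.18 for Mmp10, -0.10 to 0.21 for Serping1, -0.19 to 0.61 for Timp2, -0.15 to 0.30 for Timp4 and -0.16 to 0.0431 for St14. The cause of these changes was not tested.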

Other observations

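Some of these genes differed more among the K14ΔNLef1 arrays than between the genotypes. Klk1b5 and Klk1b21, of the group of close kallikrein copies, had gene values of 8.42 and 8.64 on K14ΔNLef1 replicate 1, against 7.40 to 7.56 on replicates 2 and 3 and 7.57 to 8.26 on the wild type arrays. Serpina1e, read by 1 probe set, had 6.32 on K14ΔNLef1 replicate 1 and 8.05 and 7.21 on replicates 2 and 3, against 8.01, 7.08 and 7.44 in wild type. Ctss, a cathepsin of antigen-presenting cells, comes from the partner lists and is not one of the 95. It had 7.55, 9.83 and 8.40 in K14ΔNLef1, against 7.64, 6.98 and 6.91 in wild type. On the K14ΔNLef1 arrays the means of the Langerhans cell markers and of the T cell markers both had the order of Ctss. On the wild type arrays their order differed from that of Ctss. The part of these cells in the values of Ctss was not tested.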
